A study of Mus musculus with 9 samples.

Results

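The Hox genes of differentiating mouse embryoid bodies were taken as every row of the deposited count tables whose symbol reads Hox, a cluster letter from a to d and a paralog number. This gave 39 of 56691 genes, of which 11 belonged to the Hoxa, 10 to the Hoxb, 9 to the Hoxc and 9 to the Hoxd cluster. By position, 8 were anterior (paralog groups 1 to 3), 15 central (groups 4 to 8) and 16 posterior (groups 9 to 13). All 9 RNA-seq libraries came from BVSC, a mouse pluripotent stem cell (PSC) line that carries the Blimp1-mVenus (BV) and Stella-CFP (SC) reporters, differentiated as embryoid bodies and sorted at day 5 for BV fluorescence. BV+ cells are called primordial germ cell-like cells (PGCLCs) and BV- cells somatic cells, as in the study. NRF1 OE cells carried a doxycycline-inducible vector with Nrf1 cDNA, which codes for nuclear respiratory factor 1, a transcription factor, and Ctrl cells carried the empty vector. Both received doxycycline at 1.5 µg/ml from day 2 to day 5, so the drug was shared by all groups. There were 2 libraries of BV+ NRF1 OE, 2 of BV+ Ctrl, 3 of BV- NRF1 OE and 2 of BV- Ctrl. The methods call them biological duplicates or replicates without naming separate inductions or clones, so p-values measure the spread between these libraries.

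Hox genes encode homeodomain transcription factors that give cells of the embryo their position along the head-to-tail axis. They lie in clusters, and within a cluster the order of the genes follows the order in which they are switched on, from anterior to posterior. Polycomb proteins hold them silent in pluripotent cells, MLL-class methyltransferases keep them active, retinoic acid, Wnt, Fgf and Cdx inputs open the clusters in the posterior embryo, and Pbx, Meis and Pknox proteins of the TALE class bind DNA together with them. In mouse primordial germ cells, Blimp1 (gene Prdm1) is known for repressing a somatic mesodermal programme that includes Hox genes.

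Total counts per library ran from 13702162 to 19625460. The gene behind each label was looked at first. Nrf1 lay at 95.7 to 99.4 CPM (counts scaled to library size with TMM factors) in BV+ NRF1 OE against 90.4 to 91.1 in BV+ Ctrl, and at 119 to 126 in BV- NRF1 OE against 99.1 to 105 in BV- Ctrl. Neither difference passed the threshold by edgeR's quasi-likelihood test (log2 fold change 0.10, adjusted p = 0.489, and 0.26, adjusted p = 0.0718), so the groups below are named by their labels. Prdm1, the gene whose reporter defined the sort, was not called between BV+ and BV- cells either (adjusted p = 0.9996 at Ctrl and 0.998 at NRF1 OE). Nrf1 was called lower in BV+ than in BV- cells at NRF1 OE (log2 fold change -0.33, edgeR adjusted p = 0.0431) but not at Ctrl (edgeR adjusted p = 0.819). Each library's deviation over 16662 genes also followed transcript GC content, with a Spearman correlation of -0.505 to -0.398 in the 4 Ctrl libraries and of 0.0237 to 0.621 in the 5 NRF1 OE libraries. Hox transcripts had a median GC content of 53.5% against 49.8% for the genes tested.

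Hox RNA was scarce in every library. The 39 genes together held 2410 counts over the 9 libraries, and no single gene exceeded 3.93 CPM in any library, the value of Hoxb9 in BV+ Ctrl replicate 1. Between 22 and 31 Hox genes had a count in a given library, 18 had a count in every library, 12 had fewer than 10 counts in all, and Hoxd3 had none. On the length-corrected FPKM scale, the mean over the libraries was 0.994 for Hoxb9, 0.562 for Hoxd13, 0.496 for Hoxc13, 0.43 for Hoxa10 and 0.258 for Hoxa7. Hoxb9 belongs to the trunk paralogs, and the genes of paralog group 13 mark the tail end of the axis. In BV+ Ctrl, Hoxb9 stood at 1.47 ± 0.127 FPKM (SD, n = 2).

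**Figure D1:**
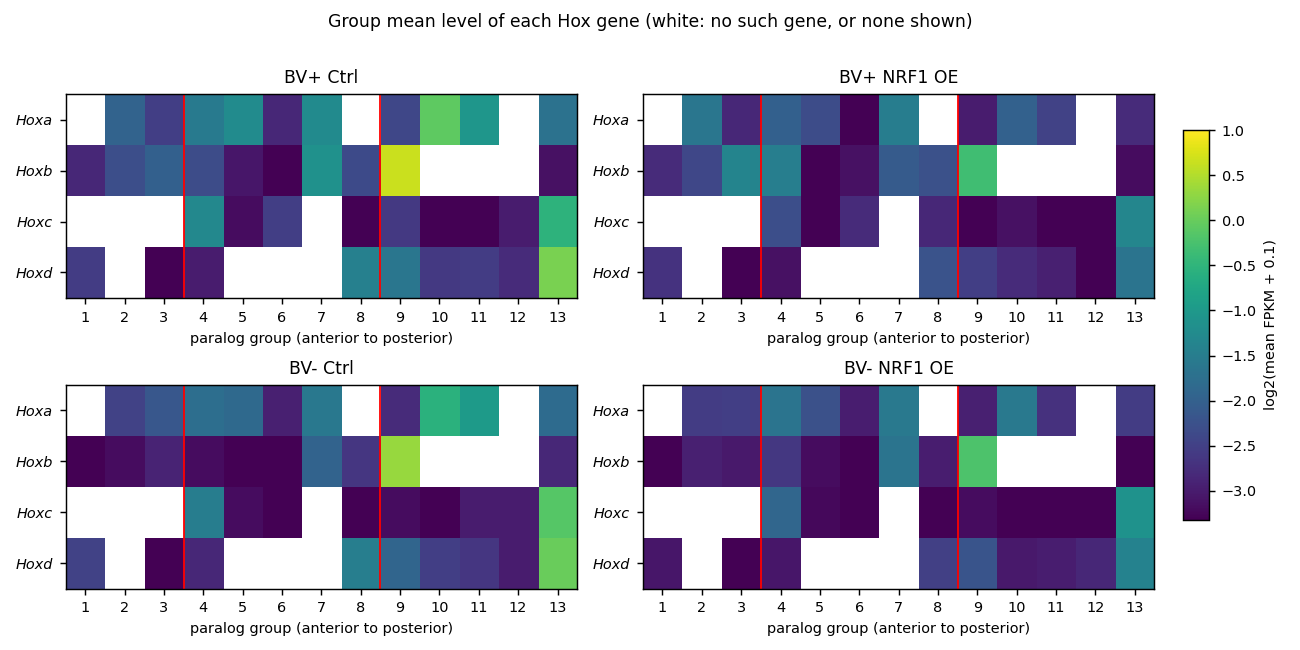
Colour map of log2(mean FPKM + 0.1) of each Hox gene in each of the 4 groups, laid out by cluster (rows Hoxa to Hoxd) and paralog group (1 to 13), with red lines between the anterior, central and posterior classes and white where there is no such gene or none is shown. Most positions are near the bottom of the scale, and in Ctrl Hoxb9, Hoxd13, Hoxc13 and Hoxa10 stand out.

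A filter on low counts (a level above 0.573 CPM in at least 2 libraries) left 16903 genes for testing, among them 12 Hox genes, 3 anterior, 4 central and 5 posterior. The other 27 were too low to test, with at most 18 counts in a library. Some of the 12 passed through 1 side of a comparison alone and so had to differ there. Hoxa11 and Hoxd8 passed only through Ctrl libraries, Hoxb3 only through BV+ libraries, Hoxb4 only through BV+ NRF1 OE and Hoxa3 only through BV- libraries. In bulk RNA, fewer cells that express a gene and less RNA per cell cannot be told apart, which holds for every difference that follows.

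The first question was whether Hox genes differed between NRF1 OE and Ctrl within the BV+ PGCLCs. Of the 12 tested, 2 posterior genes fell, Hoxa10 and Hoxd13, and none rose. Over all genes 8.02% were called, 1.78% as lower and 6.24% as higher, and among the genes with a mean under 3 CPM, the range of the Hox genes, 2.21% were called lower. The median log2 fold change of the 12 was -1.02 against 0.04 over all genes, and 10 of the 12 lay below 0. The filter fixed the sign of 3 of these, Hoxa11, Hoxd8 and Hoxb4. Among the 9 Hox genes that passed on both sides, 8 lay below 0, with a median of -1.01. Sides were counted over both populations. So Hoxa3, with no BV+ library past the cutoff, and Hoxc4, with no BV+ NRF1 OE library past it, are included. The 2 called lower, Hoxa10 and Hoxd13, were among these 9, where 1.68% of 16375 genes chosen likewise were called lower. By the study's looser rule (unadjusted p under 0.05 and a fold change beyond 0.58 on the log2 scale) 5 fell, Hoxa11 among them, and none rose, where 17.0% of all genes passed.

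Hoxa10 (ENSMUSG00000000938), which acts in lumbar patterning and in the reproductive tract, had 46 and 46 counts in the BV+ Ctrl libraries and 6 and 13 in BV+ NRF1 OE. That is 3.01 and 2.41 CPM against 0.309 and 0.707 CPM. Both NRF1 OE libraries were below both Ctrl libraries, with the lowest value in NRF1 OE replicate 1. The log2 fold change was -2.40 with a standard error (SE) of 0.43 (edgeR, adjusted p = 0.0151). Hoxd13 (ENSMUSG00000001819), a gene of the digits and the genital and hindgut region, had 2.56 and 2.26 CPM in BV+ Ctrl and 0.258 and 0.816 CPM in BV+ NRF1 OE. Again replicate 1 of NRF1 OE was the lowest and the groups did not overlap, with a log2 fold change of -2.16 (SE 0.51, edgeR adjusted p = 0.0341).

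The next posterior genes leaned the same way without passing the threshold, though Hoxa11 had to, since it passed the filter only through Ctrl libraries. Hoxa11, a limb and kidney gene, had 12 and 18 counts in BV+ Ctrl and 1 and 6 in BV+ NRF1 OE (log2 fold change -2.18, SE 0.64, edgeR adjusted p = 0.0568). Hoxb9 had 3.93 and 3.46 CPM against 1.39 and 2.23 CPM (-1.03, SE 0.33, edgeR adjusted p = 0.0716). Hoxc13, known from hair and nails, had 0.852 and 1.99 CPM against 0.309 and 1.14 CPM, so that 1 NRF1 OE library lay above 1 Ctrl library (-1.01, SE 0.55, edgeR adjusted p = 0.217). Hoxb3 and Hoxb4, which act in the hindbrain and neck region and in blood progenitors, were the 2 tested genes with a positive fold change in BV+ cells. The sign of Hoxb4 was fixed there, since it passed the filter only through BV+ NRF1 OE. Hoxb3 had 0.459 and 0.787 CPM in Ctrl against 1.44 and 0.980 CPM in NRF1 OE, and Hoxb4 had 0.131 and 0.367 CPM against 0.670 and 0.653 CPM. Neither pair of groups overlapped, yet neither gene passed the test (log2 fold changes 0.93, SE 0.57, and 1.33, SE 0.61, with edgeR adjusted p = 0.263 and 0.156).

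These BV+ calls rested on few libraries. That was not particular to Hox genes, since the calls over all genes also swung widely when a library was left out. Leaving out BV+ NRF1 OE replicate 1, BV+ Ctrl replicate 1 or BV+ Ctrl replicate 2 ended both (0 Hox genes called), leaving out either BV- Ctrl library left 1 (Hoxa10), and without BV- NRF1 OE replicate 2 there were 4. With offsets that remove each library's dependence on GC content and transcript length, Hoxa10 and Hoxd13 were still called and Hoxb9 and Hoxa11 were called as well, all lower.

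**Figure D2:**
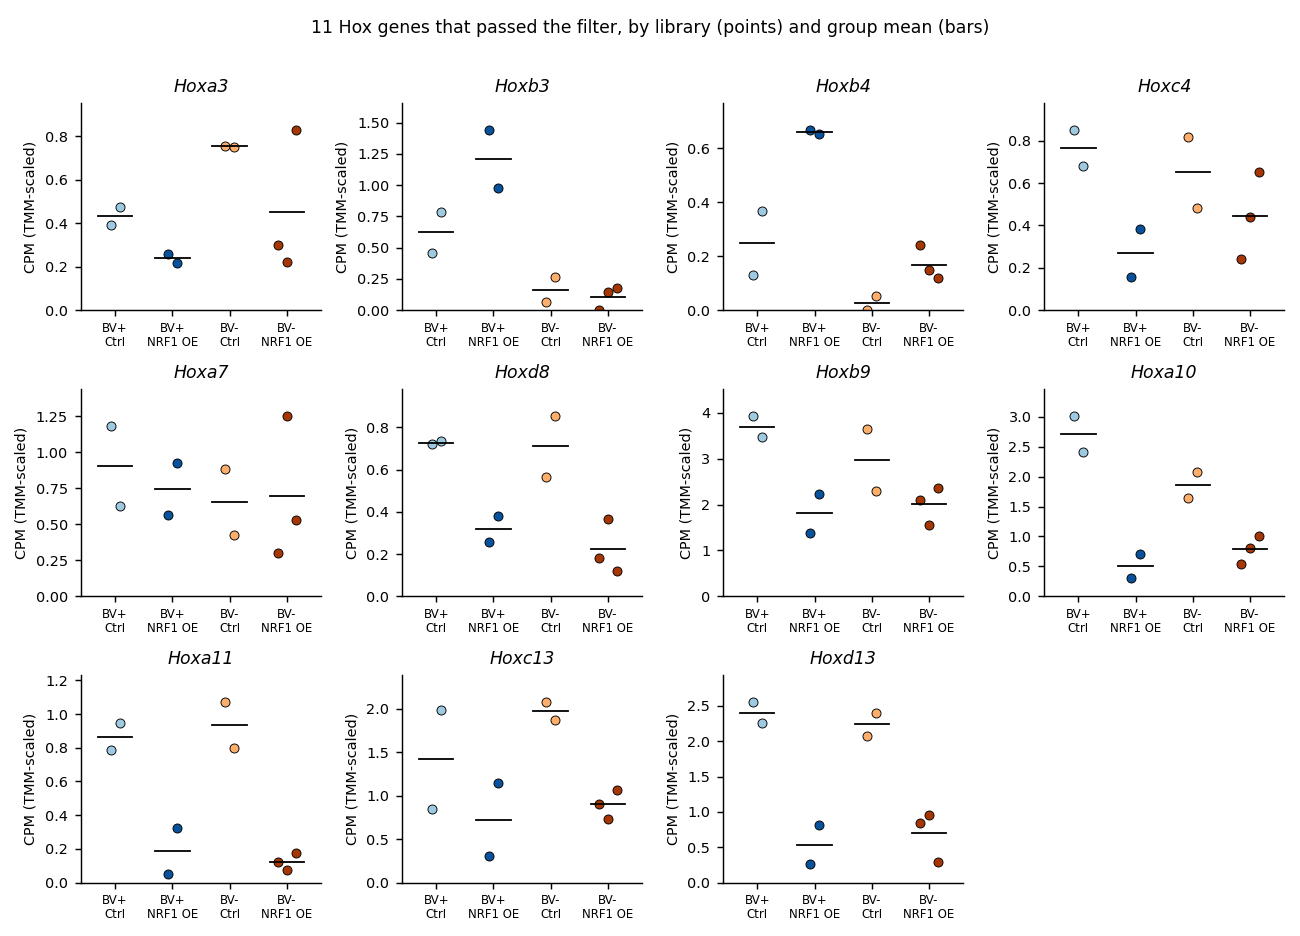
Level of 11 of the tested Hox genes in each of the 9 libraries, in CPM, with the 4 groups side by side, 1 point per library and a line at the group mean. Hoxa10 and Hoxd13 lie between 2.26 and 3.01 CPM in BV+ Ctrl and between 0.258 and 0.816 CPM in BV+ NRF1 OE, while Hoxb3 and Hoxb4 are highest in BV+ NRF1 OE.

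The same question was put to the BV- somatic cells. There 4 of the 12 tested Hox genes fell under NRF1 OE and none rose: the posterior genes Hoxa10, Hoxa11 and Hoxd13 and the central gene Hoxd8, a trunk gene. Hoxa11 and Hoxd8 were among the genes that passed the filter only through Ctrl libraries. Of the 9 that passed on both sides, counted over both populations as before, 2 were called, Hoxa10 and Hoxd13. Of all 16375 genes chosen likewise, 7.02% were called lower. Hoxb3 is among the 9 although it passed only through BV+ libraries. Over all genes 17.2% were called, 10.2% as higher and 6.98% as lower, and 2.98% of the genes under 3 CPM were called lower. By the looser rule 5 fell, against 16.0% of all genes past it. The median log2 fold change of the 12 was -0.68, and that of the 9 was -0.66, against 0.01 over all genes. Hoxa11 went from 1.07 and 0.801 CPM in BV- Ctrl to 0.120, 0.0737 and 0.178 CPM in BV- NRF1 OE. No NRF1 OE library came near a Ctrl library in that gene, and 1 to 3 counts were left in each (log2 fold change -2.80, SE 0.62, edgeR adjusted p = 0.0317). Hoxd13 went from 2.08 and 2.40 CPM to 0.843, 0.958 and 0.296 CPM (-1.70, SE 0.45, edgeR adjusted p = 0.0364). Hoxa10 went from 1.64 and 2.08 CPM to 0.542, 0.810 and 1.01 CPM (-1.24, SE 0.38, edgeR adjusted p = 0.0455). Hoxd8 went from 9 and 16 counts to 3, 5 and 2 counts (-1.71, SE 0.54, edgeR adjusted p = 0.0497), just inside the threshold. In each of these 4 genes the highest NRF1 OE library was below the lowest Ctrl library. Hoxc13 lay at 2.08 and 1.87 CPM in Ctrl and at 0.903, 0.737 and 1.07 CPM in NRF1 OE, and Hoxb9 at 3.66 and 2.30 CPM and 2.11, 1.55 and 2.37 CPM, neither past the test (edgeR adjusted p = 0.107 and 0.206).

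The BV- calls were no firmer than those in BV+ cells, and here too the calls over all genes swung widely when a library was left out. None of the 4 remained without BV- NRF1 OE replicate 3 or without any 1 of the 4 Ctrl libraries, BV+ or BV-, and 2 genes were called without BV- NRF1 OE replicate 1. In a fit of the 2 BV- groups alone no gene of any kind was called, and DESeq2 called 2 of the 4, Hoxa10 and Hoxd13, giving no adjusted p for Hoxa11 and Hoxd8.

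**Figure D3:**
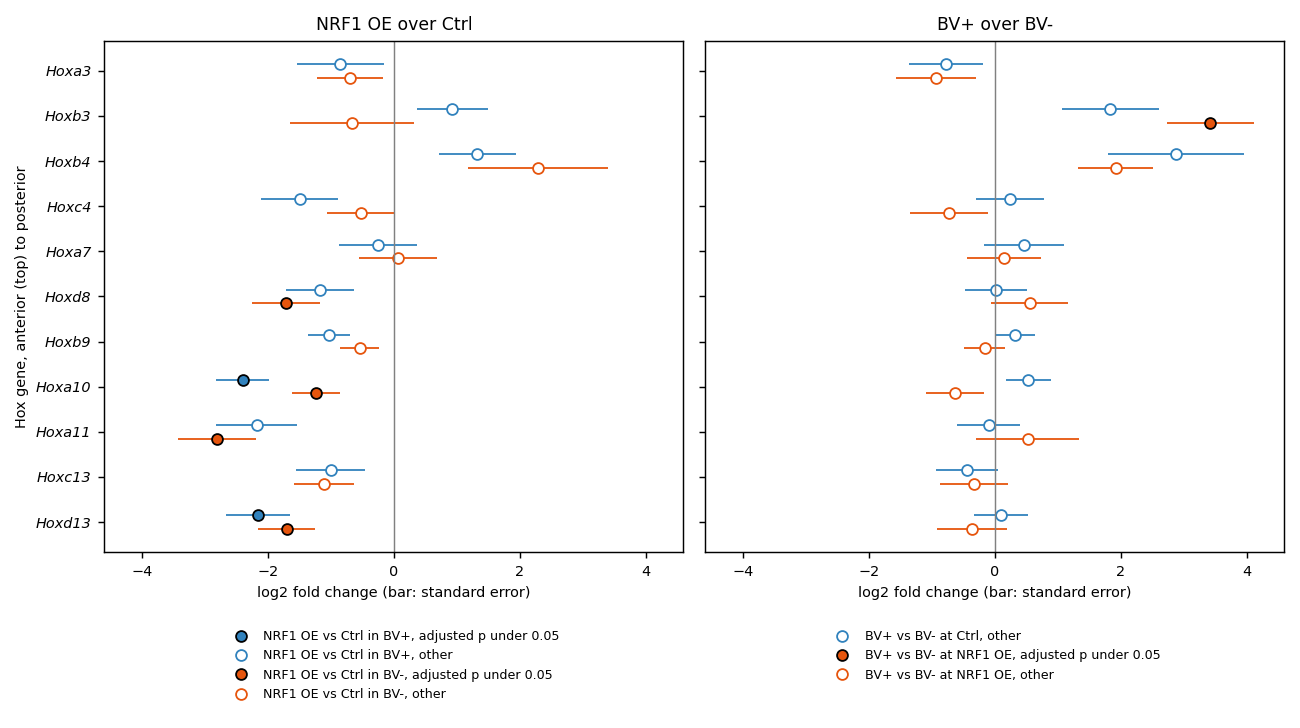
Log2 fold change of 11 of the tested Hox genes, NRF1 OE over Ctrl on the left and BV+ over BV- on the right, with bars of 1 SE, filled points for an adjusted p under 0.05 and genes from anterior (top) to posterior. On the left the 5 posterior genes lie below 0 in both populations, from -2.40 to -1.01 in BV+ and from -2.80 to -0.54 in BV- cells, and on the right Hoxb3 at NRF1 OE is the 1 filled point. Of these genes, Hoxa11 passed the filter only through Ctrl libraries and Hoxb3 only through BV+ libraries.

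Grouped by position, the 5 posterior genes tested all had negative fold changes in both populations, with a median log2 fold change of -2.16 in BV+ and -1.24 in BV- cells. Without Hoxa11, whose sign the filter fixed, the 4 left had medians of -1.59 and -1.18. The 4 central genes had medians of -0.72 and -0.23, and the 3 anterior genes of -0.36 and -0.66 with none called. The central medians still hold Hoxd8, which passed only through Ctrl libraries, and Hoxb4, which passed only through BV+ NRF1 OE. They are therefore not a like comparison for the 4 posterior genes left. In BV- cells all 3 anterior genes lay below 0 and their median was lower than the central one, so the medians did not follow the order along the axis there. Among all 38 Hox genes with a count, tested or not, 16 had both BV+ NRF1 OE libraries below both BV+ Ctrl libraries, and 10 of those 16 were posterior. Over all genes with a count 23.1% did so. The reverse order was seen in 4 Hox genes (Hoxa2, Hoxb3, Hoxb4 and Hoxc8) against 23.5% of all genes. In BV- cells 9 Hox genes lay below in all NRF1 OE libraries, 7 of them posterior, against 18.5% of all genes, and 1, Hoxb4, lay above, against 16.4%.

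In 6 genes NRF1 OE lay below Ctrl without overlap in both populations: Hoxa10, Hoxa11, Hoxa13, Hoxd8, Hoxd11 and Hoxd13. For comparison, 11.6% of all genes with a count did so. Hoxa13, a gene of limb tips and the hindgut, had 7 and 10 counts in BV+ Ctrl and 1 and 3 in BV+ NRF1 OE, then 8 and 7 in BV- Ctrl and 1, 3 and 4 in BV- NRF1 OE. Hoxd11, which shapes the forearm and kidney, had 4 and 6 counts in BV+ Ctrl and 2 and 3 in BV+ NRF1 OE, but in BV- cells the nearest libraries were 2 counts in Ctrl and 2 in NRF1 OE and differed only by depth. Both were too low to test. Hoxb4 alone lay above in both populations, as 11.8% of all genes did, with 0 and 1 counts in BV- Ctrl against 4, 2 and 2 in BV- NRF1 OE.

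Summing all counts of a class took in the untested genes, but tested genes held most of the posterior counts. Hoxb9, Hoxa10, Hoxd13, Hoxc13 and Hoxa11 had 391, 213, 212, 189 and 75 counts over the 9 libraries. No untested posterior gene had more than 45, so the posterior sums mostly restate the tested genes. The 16 posterior genes together gave 12.8 and 13.7 CPM in BV+ Ctrl and 2.83 and 6.04 CPM in BV+ NRF1 OE. In BV- cells they gave 12 and 11.3 CPM in Ctrl and 5.06, 5.53 and 5.57 CPM in NRF1 OE. The sums did not overlap in either population, and their ratios (NRF1 OE mean over Ctrl mean) were 0.334 ± 0.171 and 0.462 ± 0.0304 (SD, n = 2 against 2 and 3 against 2). For the 8 anterior genes the ratios were 0.966 ± 0.150 and 0.682 ± 0.313, and for the 15 central genes 0.674 ± 0.176 and 0.806 ± 0.280. The anterior sums overlapped between NRF1 OE and Ctrl in both populations. The posterior genes held 56.7% and 59.4% of the Hox counts in BV+ Ctrl and 26.7% and 43.0% in BV+ NRF1 OE. In BV- cells they held 63.3% and 59.9% in Ctrl and 58.7%, 50% and 44.3% in NRF1 OE, where the nearest libraries of the groups stood at 59.9% and 58.7%. The difference between classes was not tested.

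By cluster, the Hoxd sum had the lowest ratio, 0.321 ± 0.120 in BV+ and 0.378 ± 0.181 in BV- cells, and the Hoxb sum the highest, 0.792 ± 0.0417 and 0.762 ± 0.157. Hoxa gave 0.498 ± 0.102 and 0.594 ± 0.194, and Hoxc 0.481 ± 0.389 and 0.504 ± 0.133. The Hoxd sum was 4.59 and 4.04 CPM in BV+ Ctrl, 1.03 and 1.74 CPM in BV+ NRF1 OE, 3.47 and 4.54 CPM in BV- Ctrl and 1.45, 2.21 and 0.889 CPM in BV- NRF1 OE.

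Sums of receptor genes known from sensory neurons of the nose moved alongside. The 1412 olfactory receptor genes summed to 24.3 and 28.2 CPM in BV+ Ctrl, 16.4 and 14.6 CPM in BV+ NRF1 OE, 30.4 and 26.8 CPM in BV- Ctrl and 23.6, 14.7 and 18.1 CPM in BV- NRF1 OE. Their ratios of NRF1 OE to Ctrl were 0.592 and 0.658, and those of the 590 vomeronasal receptor genes 0.457 and 0.538, next to 0.538 ± 0.106 and 0.568 ± 0.105 for all Hox genes. In both populations all 3 sums were lower in every NRF1 OE library than in every Ctrl library. The receptor families were added after the Hox values were seen. The part that whatever moved the receptor sums, or the GC trend, had in the Hox sums was not tested. The posterior ratio in BV+ cells (0.334) lay below both receptor ratios, but by less than its SD from the vomeronasal one, and the anterior ratio (0.966) lay above both. In BV- cells the posterior ratio (0.462) again lay below both, but by less than the SD of the vomeronasal one (0.538 ± 0.166). The anterior ratio there (0.682 ± 0.313) differed from the olfactory one (0.658 ± 0.168) by far less than its SD.

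**Figure D4:**
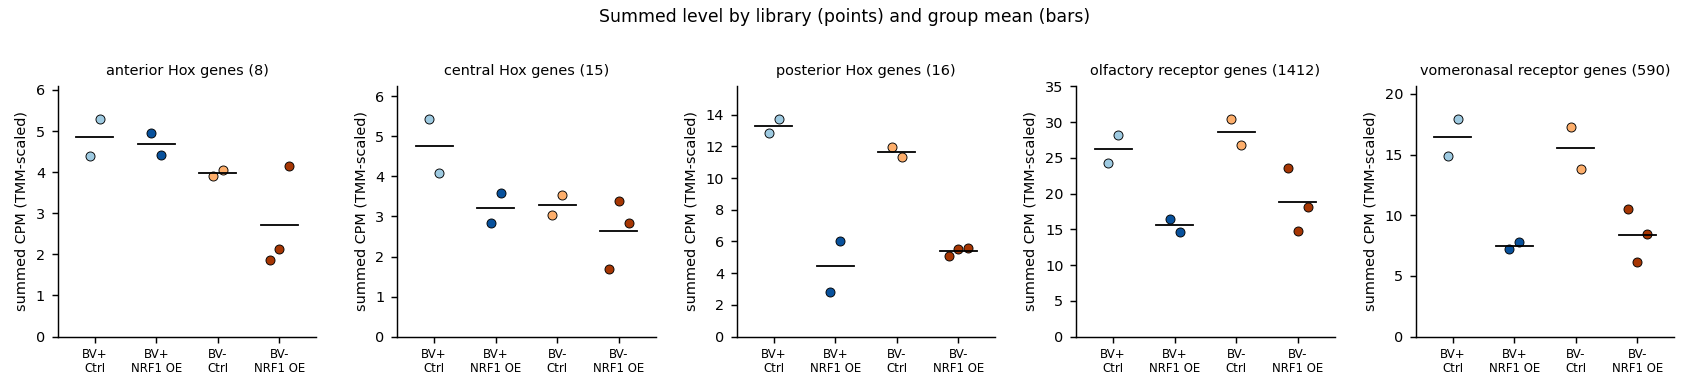
Summed CPM per library of the anterior, central and posterior Hox genes and of the olfactory and vomeronasal receptor genes, with the 4 groups side by side and 1 point per library and a line at the group mean. The posterior sum lies at 11.3 to 13.7 CPM in the 4 Ctrl libraries and at 2.83 to 6.04 CPM in the 5 NRF1 OE libraries, and the olfactory receptor sum at 24.3 to 30.4 CPM and 14.6 to 23.6 CPM.

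Promoter windows from RefSeq (build GRCm38.p6, while the counts were made on GRCm39) were at hand for 22 of the 39 Hox genes and 8 of the 12 tested. The 250 bases before the start are shown for 3 genes that fell under NRF1 OE and for Hoxb4, which did not, with CpG dinucleotides in capitals. NRF1 is known to bind a GC-rich palindrome, and its sites are sensitive to CpG methylation.
Hoxa10: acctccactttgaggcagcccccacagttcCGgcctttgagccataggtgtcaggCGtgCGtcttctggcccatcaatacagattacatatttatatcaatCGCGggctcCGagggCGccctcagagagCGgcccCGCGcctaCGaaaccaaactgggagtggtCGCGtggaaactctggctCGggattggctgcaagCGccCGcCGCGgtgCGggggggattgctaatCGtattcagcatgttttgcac
Hoxa11: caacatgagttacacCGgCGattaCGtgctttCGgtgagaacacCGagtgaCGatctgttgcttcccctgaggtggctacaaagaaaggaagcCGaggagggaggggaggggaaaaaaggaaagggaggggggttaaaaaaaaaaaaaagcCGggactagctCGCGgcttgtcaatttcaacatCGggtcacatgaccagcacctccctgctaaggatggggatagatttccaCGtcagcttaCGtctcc
Hoxd13: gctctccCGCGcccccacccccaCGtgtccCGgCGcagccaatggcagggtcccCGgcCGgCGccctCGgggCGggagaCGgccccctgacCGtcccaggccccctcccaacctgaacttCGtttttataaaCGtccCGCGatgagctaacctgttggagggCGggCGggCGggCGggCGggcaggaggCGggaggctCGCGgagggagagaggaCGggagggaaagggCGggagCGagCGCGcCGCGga
Hoxb4: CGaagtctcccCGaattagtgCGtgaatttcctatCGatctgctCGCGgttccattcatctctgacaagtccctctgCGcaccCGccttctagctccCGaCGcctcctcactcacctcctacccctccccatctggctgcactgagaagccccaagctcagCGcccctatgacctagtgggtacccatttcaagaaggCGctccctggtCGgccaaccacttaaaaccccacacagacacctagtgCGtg
The windows lie at chr6:52234940-52235189 on the minus strand (Hoxa10, 1 of its 2 annotated starts), chr6:52245811-52246060 on the minus strand (Hoxa11), chr2:74667975-74668224 on the plus strand (Hoxd13) and chr11:96318017-96318266 on the plus strand (Hoxb4). They hold 20, 13, 31 and 14 CpG, and the window at the other Hoxa10 start (chr6:52240855-52241104) holds 7, against a median of 12.5 over the 24 Hox windows and 6 over all 32851 windows, so all 4 windows shown lie above the median of all windows, and Hoxb4 lies between Hoxa11 and Hoxa10. The letters CGCATGCG, the core of the NRF1 palindrome, which read the same on both strands, occurred in 1.87% of all windows of 300 bases (250 before and 50 after the start) and in 0 of the 24 Hox windows, which says only that these letters are not in these windows.

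Whether the effect of NRF1 OE differed between BV+ and BV- cells was tested as an interaction, since the groups in which a gene passes a threshold do not show that. None of the 12 Hox genes differed, with 0 called by edgeR, 0 at an unadjusted p under 0.05 and 0 by DESeq2. Over all genes edgeR called 0 as well, 932 genes (5.51%) had an unadjusted p under 0.05 and DESeq2 called 23. By the looser rule 0 Hox genes and 4.48% of all genes differed. The differences of the Hox fold changes ran from -1.16 for Hoxa10 (SE 0.58, edgeR adjusted p = 0.935) to 1.59 for Hoxb3 (SE 1.16, edgeR adjusted p = 0.983). At SEs of this size on the log2 scale, a difference of several-fold between the populations was not detectable at this depth.

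The other comparison the design allows is between BV+ PGCLCs and BV- somatic cells. At Ctrl none of the 12 Hox genes was called by edgeR (1.12% of all genes were, 1.10% as higher and 0.0237% as lower in BV+) or by DESeq2. Unadjusted, 2 had a p under 0.05, Hoxb3 and Hoxb4, both higher in BV+ cells, where 7.77% of all genes had one, and both also passed the looser rule, as did 5.74% of all genes. At NRF1 OE 1 Hox gene was called, Hoxb3, higher in BV+ cells (13.8% of all genes were called, 9.90% as higher and 3.85% as lower, and 11.1% of the genes under 3 CPM as higher). Hoxb3 passed the filter only through BV+ libraries and Hoxb4 only through BV+ NRF1 OE. Among the 9 Hox genes that passed on both sides none was called by edgeR, against 8.97% of 16330 genes as higher. Sides here were BV+ and BV- over both vectors, so Hoxa11 and Hoxd8, which passed only through Ctrl libraries, are included. The looser rule took in Hoxb4 as well, with 14.7% of all genes past it.

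Hoxb3 (ENSMUSG00000048763) had 28 and 18 counts in BV+ NRF1 OE and 0, 2 and 3 in BV- NRF1 OE. The Ctrl libraries had 7 and 15 counts in BV+ and 1 and 5 in BV- cells. So the BV- libraries were near 0 under either vector, while every BV+ library held more. The log2 fold change of BV+ over BV- was 3.42 at NRF1 OE (SE 0.69, edgeR adjusted p = 0.00684) and 1.84 at Ctrl (SE 0.77, edgeR adjusted p = 0.569). Without BV+ NRF1 OE replicate 1 the first became 3.12 and was no longer called (adjusted p = 0.0850). Its neighbour Hoxb4 had 13 and 12 counts in BV+ NRF1 OE, 4, 2 and 2 in BV- NRF1 OE, 2 and 7 in BV+ Ctrl and 0 and 1 in BV- Ctrl. It lay just outside the threshold at NRF1 OE (1.92, SE 0.60, edgeR adjusted p = 0.0548) and was not called at Ctrl (2.88, SE 1.08, edgeR adjusted p = 0.453). Counts of Hoxb3 may hold reads of Hoxb3os, whose exons overlap it on the opposite strand, since the use of strand in counting was not given in the sources used here.

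At Ctrl 10 of the 38 Hox genes with a count lay higher in every BV+ than in every BV- library, against 16.6% of all genes, and 1, Hoxa3, lay lower, against 17.6%. At NRF1 OE 7 lay higher, against 14.0%, and 0 lower, against 12.4%. Under both vectors 5 lay higher (Hoxa2, Hoxb1, Hoxb3, Hoxb4 and Hoxc6), against 7.41% of all genes with a count, and 0 lay lower, against 6.16%. Of the 5, 3 were anterior and 2 central. Hoxa2, which patterns the second branchial arch, had 3, 7, 8 and 7 counts in the 4 BV+ libraries (Ctrl, then NRF1 OE) and 2, 3, 3, 2 and 1 in the 5 BV- libraries. Hoxb1, a gene of the hindbrain, had 1, 2, 2 and 2 counts in BV+ and 0 in all 5 BV- libraries. Hoxc6, a thoracic gene, had 4, 2, 1 and 3 counts in BV+ and 0 in all BV- libraries. All 3 were too low to test, and at these counts a single read moves the order.

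Sums of markers of other cell types differed between the same groups. The 5 mesenchyme markers (Col1a1, Col1a2, Col3a1, Pdgfra and Vim) summed to 617 to 928 CPM in BV+ NRF1 OE, 205 to 211 in BV+ Ctrl, 62.9 to 83.0 in BV- NRF1 OE and 60.1 to 73.5 in BV- Ctrl. Of the 5, 4 were called higher in BV+ than in BV- cells at NRF1 OE, where 9.90% of all genes were. Pdgfra was the exception, with 2.94 to 3.71 CPM in BV+ NRF1 OE against 2.73 to 3.61 CPM in BV- NRF1 OE, and it lay lower than in BV+ Ctrl (6.82 to 8.13 CPM). The 9 mesoderm markers summed to 27.2 to 37.6, 16.2 to 18.9, 8.0 to 8.67 and 10.2 to 10.4 CPM in the same order. The 10 germ cell markers ran the other way in sum, with 705 to 744 and 658 to 682 CPM in the BV+ groups and 884 to 950 and 718 to 733 CPM in the BV- groups. At NRF1 OE 4 of the 10 were called lower and 1 higher in BV+ cells, where 3.85% of all genes were called lower and 9.90% higher. The 6 endoderm markers were also lower in BV+ cells on average (11.2 to 14.3 and 15.8 to 18.2 CPM, against 14.8 to 27.9 and 22.5 to 25.4), as were the 6 pluripotency markers (2209 to 2528 and 2541 to 2680 CPM, against 2964 to 3117 and 2804 to 2872). The 5 neuroectoderm markers were higher in sum (201 to 231 and 168 to 179 CPM, against 137 to 155 and 151 to 164). At NRF1 OE, however, 2 were called higher and 1 lower, against the same shares of all genes. Nes lay at 59.3 and 105 CPM in BV+ NRF1 OE against 9.83 to 11.3 CPM in BV- NRF1 OE. Otx2 went the other way, with 66.5 and 89.2 CPM against 99.0 to 110 CPM, and Zic1 overlapped (1.42 and 2.32 CPM against 0.301 to 1.96 CPM). No marker of these lists was at 0 over the series. The part of mesenchymal, mesodermal or neuroectodermal cells in the Hoxb3 and Hoxb4 levels was not tested.

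**Figure D5:**
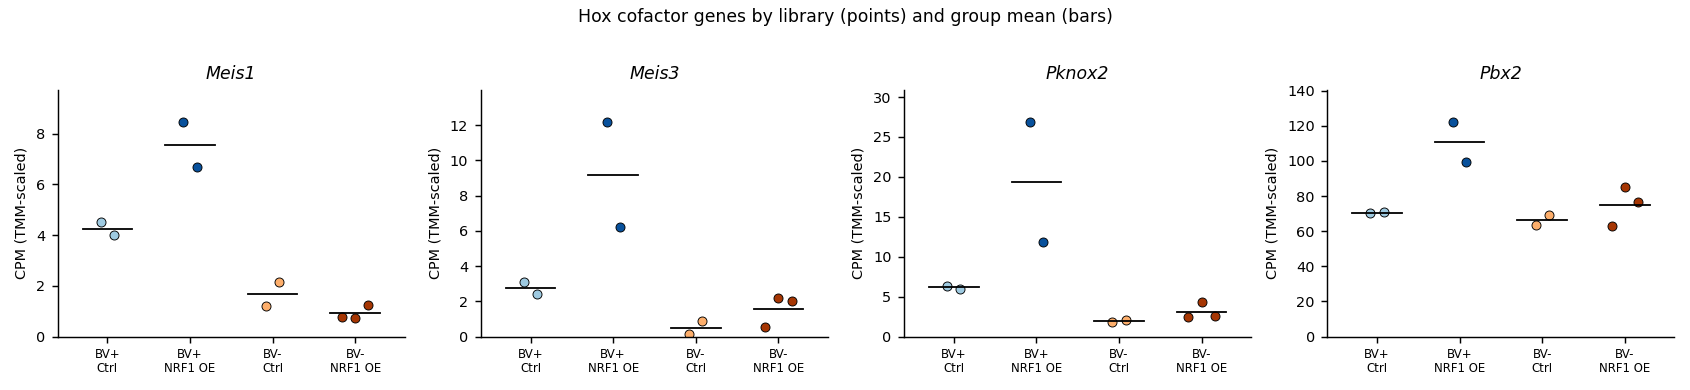
Level of the Hox cofactor genes Meis1, Meis3, Pknox2 and Pbx2 in each of the 9 libraries, in CPM, with 1 point per library, a line at the group mean and the 4 groups side by side. All 4 are higher in both BV+ NRF1 OE libraries than in the 3 BV- NRF1 OE libraries, with Meis1 at 6.69 to 8.45 CPM against 0.737 to 1.24 CPM.

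Of the 9 TALE-class cofactors, all tested, 5 were called higher in BV+ than in BV- cells at NRF1 OE and none lower, where 9.90% and 3.85% of all genes were, with a median log2 fold change of 0.57 over the 9 against 0.00 over all genes. Meis1, a partner of many Hox proteins, had 8.45 and 6.69 CPM in BV+ NRF1 OE and 0.783, 0.737 and 1.24 CPM in BV- NRF1 OE (log2 fold change 3.01, edgeR adjusted p = 4.42e-05). Pknox2 had 26.8 and 11.8 CPM against 2.47, 4.27 and 2.61 CPM (2.65, edgeR adjusted p = 0.000245). Meis3 had 12.2 and 6.20 CPM against 0.542, 2.21 and 2.01 CPM (2.55, edgeR adjusted p = 0.00485). Pbx2 had 122 and 99.4 CPM against 62.7, 85.0 and 76.4 CPM (0.57, edgeR adjusted p = 0.0193). Of the rest, Pknox1 and Pbx4 leaned the other way without passing the test (log2 fold changes -0.35 and -0.44, edgeR adjusted p = 0.110 and 0.170). At Ctrl none of the 9 was called by edgeR, although Meis1 had 4.52 and 3.99 CPM in BV+ and 1.20 and 2.14 CPM in BV- cells. Between NRF1 OE and Ctrl, Pknox2 (1.65, edgeR adjusted p = 0.0238) and Pbx2 (0.65, edgeR adjusted p = 0.0343) rose in BV+ cells, where 6.24% of all genes did, and none was called in BV- cells.

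Upstream regulators of the Hox clusters gave few calls. Of the 6 Cdx and ParaHox genes, which switch on posterior Hox genes or descend from the same ancestral cluster, 2 (Gsx1 and Gsx2) could be tested and none was called in any comparison, while Cdx1, Cdx2 and Cdx4 held 0 to 4 counts per library. Of 10 axial patterning genes tested, Gdf11, a ligand that acts at the trunk-to-tail transition, rose under NRF1 OE in BV+ cells (log2 fold change 0.79, edgeR adjusted p = 0.0458), 1 of 10 where 8.02% of all genes were called. With GC and length offsets that call was lost (0.64, edgeR adjusted p = 0.0579). At NRF1 OE, Gdf11 (0.97, edgeR adjusted p = 0.00648) and Fgf8, a posterior growth factor (1.65, edgeR adjusted p = 0.00769), were higher in BV+ than in BV- cells, 2 of 10 where 13.8% of all genes were called. Both counts were near the share over all genes. None fell.

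Among 17 Polycomb and MLL genes, 6 fell and 3 rose under NRF1 OE in BV- cells, where 6.98% of all genes fell and 10.2% rose. Eed (-0.53, edgeR adjusted p = 0.0354), a core subunit of the complex that methylates H3K27, and Bmi1 (-0.65, edgeR adjusted p = 0.0357), a subunit of the complex that ubiquitinates H2A, fell. Ring1 (0.68, edgeR adjusted p = 0.0385) and Cbx2 (0.45, edgeR adjusted p = 0.0394), of the same complex as Bmi1, rose. With GC and length offsets 1 of the 9 calls was left, Eed. In BV+ cells Cbx2 alone rose (0.48, edgeR adjusted p = 0.0499), where 6.24% of all genes did, and was lost with those offsets (0.14, adjusted p = 0.255). At NRF1 OE, Kdm6b was higher (0.70, edgeR adjusted p = 0.0241) and Kmt2b and Phc1 were lower (-0.34 and -0.39, edgeR adjusted p = 0.0482 and 0.0485) in BV+ than in BV- cells. Of all genes, 9.90% were called higher and 3.85% lower there. The calls of Kmt2b and Phc1 were lost in most fits with a library left out.

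The genes around the clusters and the noncoding genes within them were looked at last. Of the 11 flanking genes tested, Ttll6, next to Hoxb, fell under NRF1 OE in BV+ cells (log2 fold change -0.999, edgeR adjusted p = 0.0379), 1 call where 8.02% of all genes were called. In BV- cells Lnpk, next to Hoxd (-0.75, edgeR adjusted p = 0.0362), and Snx10, next to Hoxa (-0.52, edgeR adjusted p = 0.0435), fell and Calcoco2 (0.40, edgeR adjusted p = 0.0382) rose, but Lnpk and Snx10 were not called with GC and length offsets (adjusted p = 0.328 and 0.730). These 3 of 11 compare with 17.2% of all genes called. Only Calcoco2 was called between BV+ and BV- cells at NRF1 OE, as lower in BV+ (-0.39, edgeR adjusted p = 0.0375), where 13.8% of all genes were called. Of 30 noncoding and other genes inside the clusters 5 passed the filter. Gm53 fell in BV+ cells under NRF1 OE (-0.74, edgeR adjusted p = 0.0279), where 8.02% of all genes were called, with no other call in any comparison. Hoxa11os, antisense to Hoxa11, had 9 and 8 counts in BV+ Ctrl, 1 and 7 in BV+ NRF1 OE, 5 and 14 in BV- Ctrl and 1, 2 and 6 in BV- NRF1 OE. Reads of Hoxa11 and Hoxa11os cannot be told apart without strand, while Hoxa10 and Hoxd13 share no exon with another annotated gene.

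The microRNA gene Mir196a-1 lies in the Hoxb cluster, and miR-196 is known to repress Hox mRNAs, Hoxb8 among them. The mature RNA, with its seed (bases 2 to 8) in capitals, shows what the row is named for.
mmu-miR-196a-5p: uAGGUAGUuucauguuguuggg
It lies at chr11:96265187-96265208 on the plus strand of GRCm38.p6 (RefSeq). The row had 24 and 37 counts in BV+ Ctrl, 18 and 14 in BV+ NRF1 OE, 24 and 25 in BV- Ctrl and 22, 13 and 10 in BV- NRF1 OE. The NRF1 OE libraries lay below the Ctrl libraries in both populations, in BV- cells by a narrow margin (at most 1.32 against at least 1.33 CPM), and neither difference passed the test (log2 fold changes -1.06 and -0.57, edgeR adjusted p = 0.0999 and 0.270). These libraries were made from poly(A) RNA, so the counts are reads of a longer transcript over this place and not of the mature microRNA. Which transcript that is was not tested. Mir10a, Mir10b, Mir196a-2, Mir196b, Mir615 and Hottip had no count in any library.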

How the data were processed

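RNA-seq of 9 sorted cell populations was analysed. Per the paper's methods and the labels, the authors sequenced poly(A) RNA as paired reads, aligned them with HISAT2 2.0.1 to GRCm39 and counted them per gene with HTSeq 0.6.1. The deposited counts are raw reads per gene, and the deposited FPKM values are the authors' own, normalized for library size and gene length. Whether counting used strand is not given in the sources used here. Total counts of 13702162 to 19625460 per library limit the precision for genes as low as Hox.

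Groups were taken from the labels. The counts of all 9 libraries were fitted together with edgeR 4.0.16 (R 4.3.3): filterByExpr with a minimum count of 10, TMM factors, group as the term, and the two-sided quasi-likelihood F test, with Benjamini-Hochberg adjustment over 16903 genes of 33142 with a count. A call is an adjusted p under 0.05, and CPM are counts scaled to the library total times its TMM factor (0.969 to 1.026). Sums and ratios are of CPM, with the SD of a ratio propagated from both groups. The fit was checked on simulated data. The alternatives were DESeq2 (1.42.0), other size factors, no filter, only the groups compared, the replicate number as a block, GC and length offsets, the study's looser call rule, FPKM in place of CPM for the sums, and each library left out.

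The members and lists were chosen with earlier results of these data known. Values in every library are given for Hox genes called in any pairwise comparison, for the gene with the highest mean FPKM in each cluster and for genes whose groups did not overlap in both comparisons of NRF1 OE with Ctrl or in both of BV+ with BV-. Hoxc4, Hoxa3, Hoxa7 and the remaining genes are covered by counts and ranges, and list genes are named when called, at most 4 per list and comparison by adjusted p. A few genes that these rules take in are not reported here. Promoter windows and the microRNA come from RefSeq tables of GRCm38.p6, and exon overlaps from GENCODE M21, used for neighbours only.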

Additional observations from a re-analysis of the deposited data

How the results depend on the processing

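The number of Hox genes called was sensitive to how the data were handled. For NRF1 OE against Ctrl in BV+ cells, 2 genes were called, against 4 with no filter, 4 with only the groups compared, 4 with GC and length offsets, 5 by the study's looser rule and 0 with the replicate block. In BV- cells 4 were called, against 5 with no filter, 2 by DESeq2, 0 with only the groups compared, 0 with the replicate block and 0 with GC and length offsets plus the block. Between BV+ and BV- cells, the study's rule gave 2 at Ctrl in place of 0 and 2 at NRF1 OE in place of 1, where the offsets also gave 2. Leaving out each library in turn gave 0 to 4 in BV+, 0 to 4 in BV-, 0 to 0 at Ctrl, 0 to 2 at NRF1 OE and 0 to 0 for the difference of effects. A group left with 1 library was assumed to vary like the others. Of the single-gene results under alternatives, run for 10 of the tested Hox genes in selected comparisons, 363 stayed on their side of the threshold in their direction, 46 lost and 12 gained a call, and 1 turned: Hoxb3 in BV- cells, at -0.66, became 0.68 without BV- Ctrl replicate 2 (range -1.28 to 0.68 over libraries left out), never called. Most of the 363 were results that were not called in the main fit either. Of the called ones, Hoxd8 in BV- cells lost its call in 10 of 15 alternatives and Hoxa10 in BV- cells in 9 of 17. Hoxb3 in BV+ against BV- cells at NRF1 OE lost it in 1 of 17. The cause of these changes was not tested.

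Replicate numbers did not pair the libraries: same-numbered libraries correlated between -0.243 and 0.246 in their deviations, and with the replicate block the genes called over the whole table went from 1355 to 3 in BV+ and from 2910 to 0 in BV- cells, from 190 to 121 at Ctrl and from 2325 to 1064 at NRF1 OE. Crossing the pairs of the Ctrl libraries, chosen after seeing the data, gave 0 Hox genes and 2079 genes at Ctrl.

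Over all genes, the BV+ comparison called 1355 (1054 higher and 301 lower), 3440 with no filter, 2106 by DESeq2, 4371 with only the groups compared, 2870 by the study's rule and 2204 with GC and length offsets (1291 higher and 913 lower). The BV- comparison called 2910 (1731 and 1179), 3141 by library size alone (1418 and 1723), 4392 with no filter, 0 with only the groups compared, 1378 with offsets (1069 and 309) and 58 with offsets and block. The comparison at Ctrl called 190, 529 with no filter, 303 by DESeq2, 890 with only the groups compared, 291 with offsets and 971 by the study's rule. At NRF1 OE 2325 (1674 and 651) were called, 1260 with only the groups compared and 5094 with offsets (1705 and 3389). The difference of effects called 0, 108 with no filter, 23 by DESeq2, 1 with offsets and block and 757 by the study's rule.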
